A study of Mus musculus with 36 samples.

Results

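The data below are the transcript levels of 10 Krüppel-like factors, Klf2, Klf3, Klf4, Klf5, Klf6, Klf7, Klf9, Klf10, Klf13 and Klf15, in a mouse fibroblast-like chondrocyte line treated with IL-1β. They were found by gene symbol and are 10 of the 53421 genes in the count table. Wild-type cells of this conditionally immortalised line, which is a single line and not primary cartilage, were transfected with pooled siRNA of no target (NT) or directed at Ift88 (IFT88siRNA), a component of the transport system that builds the primary cilium. Both groups carried transfected siRNA, given as 50 nM in the sample labels and as 10 nM in the methods of the study. IL-1β at 10 ng/ml was then left on the cells for 24 h at the longest, with collection also at 1, 2, 4 and 8 h, and cells without it served as 0 h. Each of these 12 conditions had 3 libraries, so that 36 were analysed. The only libraries without IL-1β were those at 0 h. A change from 0 h that is given below as a response to IL-1β therefore cannot be told apart from an effect of time in culture or handling.

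Krüppel-like factors are transcription factors with a conserved set of C-terminal zinc fingers that bind GC-rich and CACCC-type DNA. They share those sites with the related Sp proteins, and their other domains set whether a member activates or represses. Several members are immediate-early genes, transcribed within minutes of serum, growth factors or cytokines without new protein synthesis, and KLF2, KLF4 and KLF6 are known for roles in inflammation, cell identity and growth arrest.

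Total counts on genes ranged from 19337022 to 38304127 per library, with a median of 21672803.5 in NT and 25873754 in IFT88siRNA. At 0 h and at 1 h every IFT88siRNA library was deeper than every NT library. Counts were scaled for depth, but the part of depth in the differences between the siRNA groups was not tested. Ift88 itself was at 8.65 to 9.35 CPM (the count relative to a TMM-scaled library size) in NT and at 2.59 to 2.88 CPM in IFT88siRNA at 0 h, and it was lower in IFT88siRNA at every time point, by 1.47 to 2.12 on the log2 scale. The fibroblast part of the line's label was borne out by its transcripts, with 7 of 8 fibroblast markers at 1 TPM (a share of transcripts that corrects for length) or more in NT at 0 h, among them Vim and Col1a2. Of 10 chondrocyte markers, 5 reached 1 TPM, including Sox9 at 11.3 TPM and Col2a1 at 8.35 TPM, whereas Acan at 0.126 TPM, Col9a1 at 0.0439 TPM and Matn3 at 0.132 TPM were near 0. The 6 endothelial markers summed to at most 2.23 TPM and the 6 leukocyte markers to at most 1.33 TPM in any library, 5 epithelial markers summed to 0.830 to 9.94 TPM, and 0 of these 3 lists' members reached 1 TPM in NT at 0 h except 1 epithelial marker. The labels do not say that replicates came from separate cultures, so the p-values below measure the spread between these libraries, which may be technical.

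In the GRCm38 assembly, Klf6 lies at chr13:5861482-5870394 and Klf10 at chr15:38291463-38300706. Klf7 covers chr1:64029447-64122282, and exons of the antisense genes Gm26649 and Gm13748 overlap its own. Klf4 lies at chr4:55527143-55532466, Klf13 at chr7:63886351-63938915, Klf5 at chr14:99298691-99315036 and Klf9 at chr19:23141226-23168134. Klf2 is a compact gene at chr8:72319033-72321656. Klf3, at chr5:64803388-64832901, shares exonic sequence with Gm20033 on the opposite strand, and Klf15 is at chr6:90462576-90475238. Counting took no account of strand, so reads from Klf3 or Klf7 and from their antisense partners cannot be told apart where exons overlap.

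The promoters of Klf6 and Klf2 are shown because their transcripts both rose at 1 h and then followed different courses, a single peak and a pair of peaks. Each sequence is the 250 bases before the transcription start in RefSeq (GRCm38.p6), read along the gene's own strand, which is the plus strand for both. Klf6 is chr13:5861239-5861488 and Klf2 is chr8:72318812-72319061. Capitals mark the GC box (GGGCGG), the MEF2 site of Klf2 and the element CACCC, each searched on both strands, so that the last may appear as GGGTG.
Klf6: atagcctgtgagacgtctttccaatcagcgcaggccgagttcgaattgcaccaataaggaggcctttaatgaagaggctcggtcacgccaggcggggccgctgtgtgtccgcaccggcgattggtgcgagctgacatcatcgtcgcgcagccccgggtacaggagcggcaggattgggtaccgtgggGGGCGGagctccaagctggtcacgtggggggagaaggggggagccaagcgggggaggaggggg
Klf2: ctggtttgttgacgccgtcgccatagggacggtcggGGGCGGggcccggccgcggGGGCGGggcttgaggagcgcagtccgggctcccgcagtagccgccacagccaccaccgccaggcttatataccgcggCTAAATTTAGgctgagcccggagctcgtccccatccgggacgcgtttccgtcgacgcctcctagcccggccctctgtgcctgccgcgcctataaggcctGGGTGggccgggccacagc
Of the 10 members, 8 had a promoter in the RefSeq table, and 7 of those 8 held a GC box, an element found in 32.74% of 32851 promoters of the same length. CACCC was in 6 of 8, against 52.01% of all promoters. The MEF2 site at −118 to −109 of Klf2 was the only match to that motif among the 8, and 2.92% of all promoters held one. Klf9 held the only AP-1 element (TGANTCA, 6.75% of promoters), at −89 to −83 and overlapping a CACCC element by 2 bases, and the 8 windows held no match to the CArG box of SRF (1.47% of promoters), the CRE (TGACGTCA, 1.55%), the NF-κB site (3.9%) or TATAAA (12.37%). These are matches of letters in a short window and do not say whether a factor binds there or elsewhere.

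At rest the members differed widely in level. Per length, in NT at 0 h, Klf3 was at 91.9 TPM and Klf6 at 91.7 TPM, with overlapping ranges over the 3 libraries (85.0 to 96.8 and 89.0 to 96.8 TPM). Klf4 followed at 61.2 TPM and Klf10 at 29.1 TPM, each apart from its neighbours. The next 3 could not be ordered, since the libraries of Klf2 (mean 19 TPM), Klf7 (17.2 TPM) and Klf5 (16.7 TPM) overlapped. Klf13 at 14.4 TPM and Klf9 at 10.4 TPM stood apart below them, and Klf15 was far lower at 0.499 TPM.

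The first question was how the members respond to IL-1β in control cells. Tested over the 5 time points together in the 18 NT libraries, 9 of the 10 members changed and all 9 exceeded a 1.5-fold rise at some time, where 50% of the 16048 genes tested were called. The rise was early and largely transient. A gene was called at an adjusted p under 0.05 and a change over 1.5-fold. At 1 h 7 members had risen, as had 9.22% of all genes. At 2 h 7 had risen (13% of genes) and Klf15 had fallen (14.3%), and at 4 h 9 had risen (16.3%). At 8 h Klf9 and Klf15 were the members called higher (11.8%), and at 24 h Klf15 was higher (6.61%) and Klf2 lower (9.71%). The median log2 change of the 10 members was 0.90 at 1 h, 1.5 at 2 h, 1.10 at 4 h, 0.27 at 8 h and −0.07 at 24 h, while the median over all genes tested lay between −0.02 and −0.01.

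**Figure D1:**
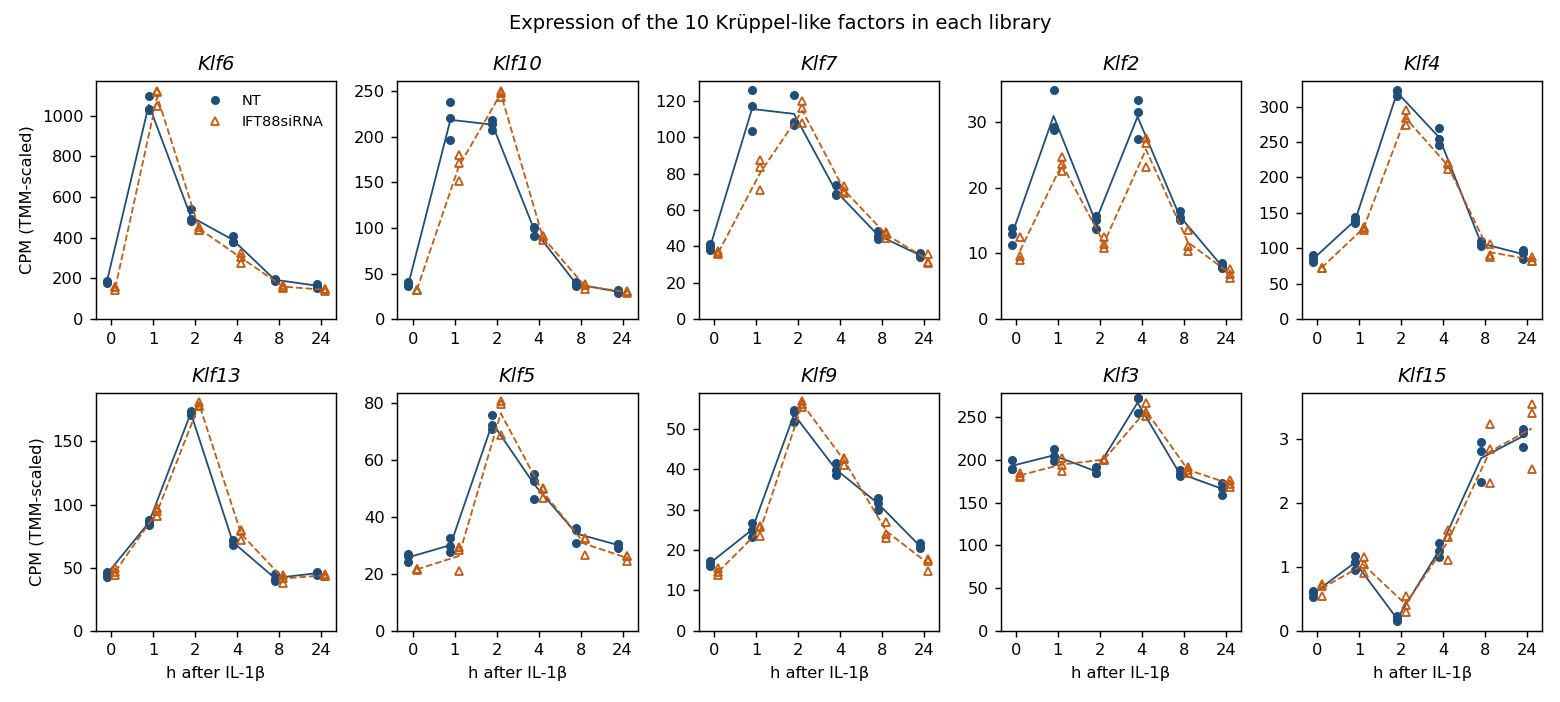
CPM (TMM-scaled, linear axis from 0) of each member against hours after IL-1β, with each library as a point (filled circles NT, open triangles IFT88siRNA) and lines through the mean of 3 libraries. Klf6, Klf10 and Klf7 were highest at 1 to 2 h, Klf4, Klf13, Klf5 and Klf9 at 2 h, Klf2 was high at 1 and 4 h, Klf3 stayed under 1.5-fold and Klf15 was lowest at 2 h and highest at 24 h.

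Klf6, Klf10 and Klf7 formed the earliest wave. Klf6, a growth-restraining factor that was first described as a core promoter element binding protein, stood at 177, 189.9 and 185 CPM in the NT libraries at 0 h and at 1035, 1096 and 1029 CPM at 1 h. No library of these groups came near the other, and the rise was 2.52 ± 0.05 on the log2 scale (SE, n = 3 libraries a group, adjusted p = 3.05e-22). By 2 h Klf6 was at 481, 539.7 and 489.9 CPM, below every library at 1 h, and it had fallen by 1.07 from 1 h on the log2 scale (SE 0.0493, adjusted p = 8.84e-15). It was still raised by 1.09 ± 0.05 at 4 h and at 189.7 to 197 CPM at 8 h, where the change of 0.08 was not called.

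Klf10, the TGF-β-inducible early gene that represses transcription through SIN3A, was the only member to hold a plateau of over 5-fold. Its NT libraries were at 38.6, 40.6 and 36.1 CPM at 0 h, at 220.0, 197 and 238 CPM at 1 h and at 207, 218 and 214 CPM at 2 h. The values at 1 and 2 h overlapped, all lay well above 0 h, and the log2 changes were 2.50 ± 0.06 (adjusted p = 2.77e-20) and 2.47 ± 0.06 (adjusted p = 3.16e-20). Klf10 then fell by 1.12 between 2 and 4 h and by 1.35 between 4 and 8 h, when it was level with 0 h (log2 change −0.00 ± 0.07). At 24 h it stood at 28.6 to 31.5 CPM, below all 3 libraries at 0 h, with a log2 change of −0.36 that passed the adjusted p (0.000149) but not the 1.5-fold threshold.

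Klf7, best known from axon growth in sensory neurons, followed a similar course at a smaller size. It rose from 39.8, 41.1 and 37.8 CPM to 117, 103 and 126 CPM at 1 h and 107, 124 and 108 CPM at 2 h. Both groups were clear of 0 h and overlapped each other, with log2 changes of 1.54 ± 0.07 and 1.51 ± 0.07. It fell by 0.67 from 2 to 4 h, a call that was lost without replicate 2 (−0.58), and its rise of 0.84 at 4 h passed on counts but not on TPM, where it was 0.50 to 0.52.

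Klf4, Klf13, Klf5 and Klf9 formed a second wave, grouped here only by a highest level at 2 h in NT. Klf4, a reprogramming factor and regulator of epithelial barrier and vascular genes, was at 90.3, 84.7 and 80.2 CPM in NT at 0 h, at 139.6, 135 and 144 CPM at 1 h, at 322, 315 and 324 CPM at 2 h and at 269.8, 246 and 254 CPM at 4 h. The 4 groups did not overlap. The log2 change was 0.71 ± 0.05 at 1 h, 1.91 ± 0.05 at 2 h (adjusted p = 5.95e-20) and 1.6 ± 0.05 at 4 h. At 8 h its 103 to 110.1 CPM were above 0 h by 0.34, which passed the adjusted p only. The call at 1 h was lost on TPM, where the change was 0.56 to 0.57.

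Klf13, which activates the chemokine gene Ccl5 in T cells, had the largest fall of the members between 2 and 4 h. Its NT libraries were at 46.5, 45.0 and 43.0 CPM at 0 h, 88.0, 83.7 and 85.3 CPM at 1 h, 171, 174 and 173 CPM at 2 h and 67.9, 71.6 and 71.4 CPM at 4 h. Each group stood apart from the next, and Klf13 rose by 1.01 ± 0.04 between 1 and 2 h and fell by 1.28 between 2 and 4 h. By 8 h its libraries (39.4 to 44.9 CPM) overlapped with those at 0 h. The rise of 0.66 at 4 h was called with TMM but not with upper-quartile scaling (0.54) or on TPM (0.33 to 0.35).

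Klf5, a factor of proliferating epithelium and smooth muscle, and Klf9, a target of the glucocorticoid and thyroid hormone receptors, were slower at 1 h. Klf5 was at 24.3, 26.3 and 26.9 CPM at 0 h, 29.9, 27.7 and 32.8 CPM at 1 h and 70.9, 72.6 and 75.8 CPM at 2 h. Its libraries at 1 h lay just above those at 0 h (log2 change 0.22 ± 0.07, not called), and those at 2 h far above (1.5 ± 0.07, adjusted p = 2.76e-15). Klf9 was at 16.1, 17.2 and 17.0 CPM at 0 h, 23.3, 25.0 and 26.7 CPM at 1 h and 51.7, 54.3 and 54.8 CPM at 2 h. All 3 groups of Klf9 were separate, and its change of 0.57 at 1 h lay just inside 1.5-fold and was called by DESeq2 (0.59). Klf9 kept its rise longest of this wave, with 1.67 ± 0.06 at 2 h, 1.26 ± 0.06 at 4 h and 0.91 ± 0.06 at 8 h, when it was at 33.0, 30.0 and 31.6 CPM.

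Klf2, the flow-sensitive factor of endothelium and of quiescent T cells, had a pair of peaks. In NT it was at 12.9, 13.9 and 11.3 CPM at 0 h, 34.8, 28.7 and 29.2 CPM at 1 h, 15.7, 13.8 and 15.1 CPM at 2 h, 31.6, 27.4 and 33.4 CPM at 4 h and 16.5, 15.5 and 15.1 CPM at 8 h. The libraries at 1 and 4 h overlapped each other and none of them overlapped those at 0, 2 or 8 h. Klf2 rose by 1.27 ± 0.09 at 1 h (adjusted p = 1.68e-11), fell by 1.06 from 1 to 2 h (adjusted p = 5.93e-10), rose again by 1.06 ± 0.09 from 2 to 4 h (adjusted p = 2.15e-10) and fell by 0.98 from 4 to 8 h (adjusted p = 1.26e-09). At 24 h it was at 8.15, 8.55 and 7.72 CPM, lower than every other NT library, and 0.65 below 0 h on the log2 scale (SE 0.101, adjusted p = 1.1e-05). The change at 2 h against 0 h was 0.22 with TMM and −0.07 on TPM, neither called.

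Klf3 and Klf15 stood outside both waves. Klf3, a repressor that recruits CtBP, was at 189.6, 199.8 and 190.0 CPM at 0 h, and at 4 h, its highest, at 273, 273 and 255 CPM. These groups did not overlap, yet the log2 change of 0.48 ± 0.04 (adjusted p = 5.9e-10) stayed under 1.5-fold, and Klf3 was the member called at no time point.

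Klf15, a metabolic regulator that glucocorticoids induce in muscle, liver and fat, was near the limit of detection early on. It had 14, 15 and 12 reads in the NT libraries at 0 h, 22 in each at 1 h, and 3, 5 and 4 at 2 h, or 0.156, 0.228 and 0.178 CPM. At 24 h it had 83, 85 and 85 reads, or 3.10, 3.16 and 2.88 CPM. Klf15, like Klf2, went up, down and up again, as it was higher at 1 h (0.86 ± 0.23, adjusted p = 0.00554), was lower by 1.6 at 2 h on the log2 scale (SE 0.338, adjusted p = 0.000465) and was higher again at 4 h (1.11 ± 0.23, adjusted p = 0.000169). Later it rose by 2.21 ± 0.19 at 8 h and 2.38 ± 0.19 at 24 h (adjusted p = 1.11e-10), the only member whose highest level came after 4 h. Its call at 1 h (0.86) was lost without replicate 1 (0.81) or 3 (0.79), and the calls at 1, 2 and 4 h were lost on log2(TPM + 1), which compresses such low levels.

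**Figure D2:**
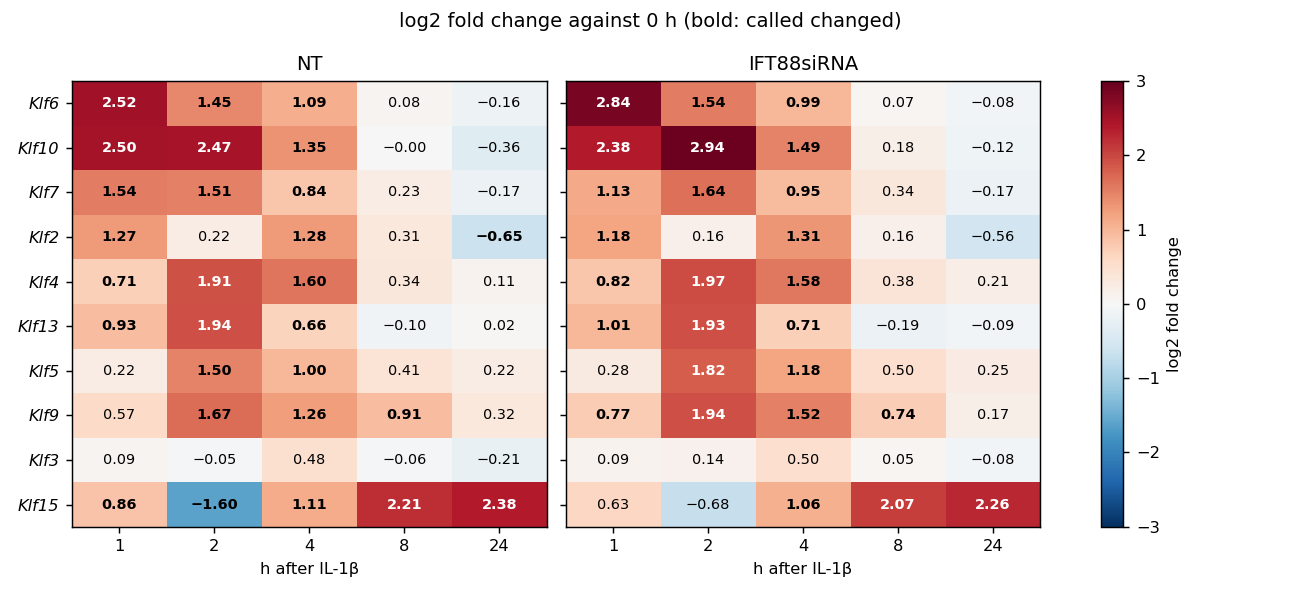
Log2 fold change against 0 h of each member (rows) at each time after IL-1β (columns) in NT and in IFT88siRNA, on a colour scale from −3 to 3, with the value in each cell and called changes in bold. Nearly all bold cells lie at 1 to 4 h, and Klf15 alone is called higher at 24 h.

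Between neighbouring time points in NT, 4 members rose (6.08% of all genes) and 3 fell (5.8%) from 1 to 2 h, and 2 rose (16.6%) and 3 fell (10.5%) from 2 to 4 h. From 4 to 8 h 1 rose (7.01%) and 7 fell (9.93%), and from 8 to 24 h Klf2 and Klf9 fell (10.2%). The steps from 1 to 2 h of Klf10 (−0.04 ± 0.06) and Klf7 (−0.03 ± 0.06) were within their standard errors. TPM moved the median of all genes by −0.16 at 1 h, −0.25 at 2 h and at 4 h, −0.10 at 8 h and −0.11 at 24 h relative to TMM-scaled counts, and on TPM the count from 4 to 8 h was 5. The call of Klf9 from 8 to 24 h (−0.59) was lost without replicate 1 or 3 (−0.58 each).

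Per length, the 10 members together made up 352 ± 16.6 TPM in NT at 0 h (SD, n = 3), 938 ± 22.4 TPM at 1 h, 786 ± 12.4 TPM at 2 h, 623 ± 19.8 TPM at 4 h, 371 ± 2.83 TPM at 8 h and 304 ± 11 TPM at 24 h. Klf6 supplied 26.0% ± 0.777 of that sum at 0 h and 50.9% ± 2.28 at 1 h. At 2 h the composition was different, as Klf4 (198 TPM) overlapped with Klf6 (213 TPM) in its libraries. In IFT88siRNA the sum was 306 ± 5.60 TPM at 0 h, 878 ± 15.0 TPM at 1 h and 286 ± 7.78 TPM at 24 h.

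**Figure D3:**
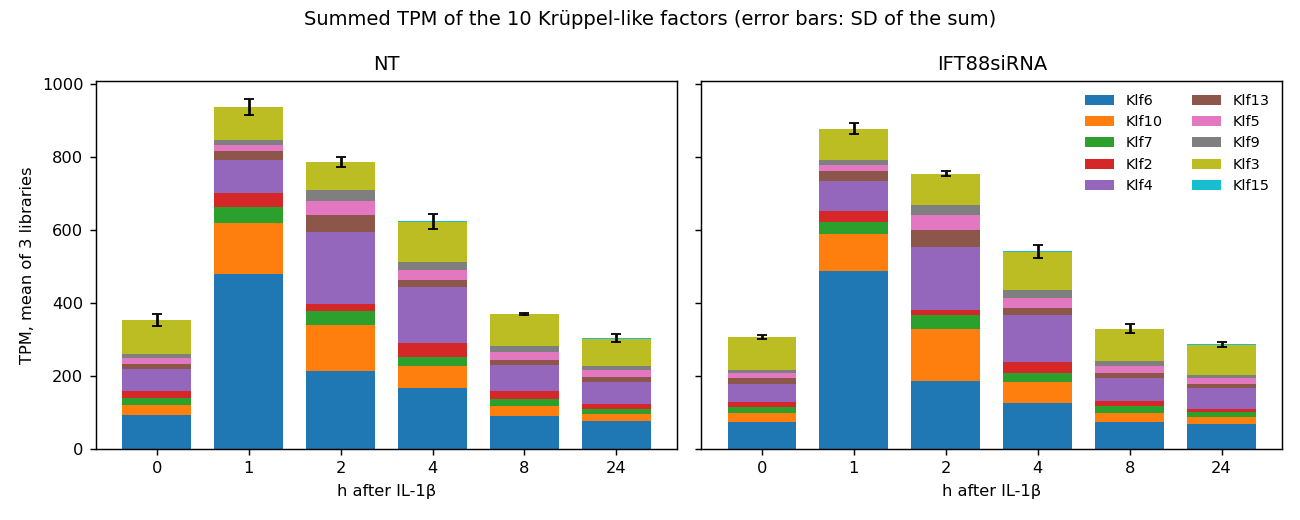
Stacked mean TPM of the 10 members (y axis from 0, n = 3 libraries) against hours after IL-1β in NT and in IFT88siRNA, with the SD of the sum as error bars. The sum was highest at 1 h, at 938 TPM in NT and 878 TPM in IFT88siRNA, with Klf6 the largest share.

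The second question was whether the course differed in cells given siRNA against Ift88. Within the 18 IFT88siRNA libraries, 9 of 10 members changed over time (48.2% of 16129 genes), all but Klf3 as in NT. At 1 h 7 members had risen (6.82% of all genes), at 2 h 7 (12.4%), at 4 h 9 (16%), at 8 h Klf9 and Klf15 (10.5%) and at 24 h Klf15 (6.36%), with no member called lower. Klf2 again had a pair of peaks, at 22.5, 23.5 and 24.7 CPM at 1 h and 26.7, 27.5 and 23.2 CPM at 4 h, around 12.5, 10.8 and 11.5 CPM at 2 h. Klf10 and Klf7 were highest at 2 h here, with log2 changes of 2.94 ± 0.06 and 1.64 ± 0.07, against 2.38 ± 0.06 and 1.13 ± 0.07 at 1 h. Klf15 had 7, 12 and 10 reads at 2 h, and its change of −0.68 ± 0.32 was not called (adjusted p = 0.0725).

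Directly compared, 0 of the 10 members were called different between IFT88siRNA and NT by edgeR at any of the 6 time points, over time or on average, and DESeq2 also called 0. Of all genes, 2.23% were called at 0 h, 2.66% at 1 h, 0.496% at 2 h, 0.432% at 4 h, 0.692% at 8 h and 1.15% at 24 h, 5.19% over time and 1.93% on average. Klf15 was left out of the comparison at 2 h by the filter on low counts, so 9 members were tested there. At an unadjusted p under 0.05, edgeR gave 8 members at 0 h, 4 at 8 h and 5 at each of the other 4 time points. The share of all genes at that threshold is not reported here, so these counts cannot be set against it. With the adjusted p alone and no fold threshold, 4 members passed at 0 h (19.5% of all genes), 5 at 1 h (19%), 1 at 2 h (2.76%), 2 at 4 h (3.85%), 3 at 8 h (4.25%) and 3 at 24 h (8.66%). Most of these differences were small and negative.

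On average over the 6 time points, 8 members passed the adjusted p (39.7% of all genes did), 7 of them lower in IFT88siRNA (18.5%), and the median difference of the 10 was −0.12 on the log2 scale against −0.00 for all genes. Klf2 had the largest such difference, −0.32 ± 0.04 (adjusted p = 3.36e-07). Klf6 followed with −0.21 ± 0.02 (adjusted p = 3.18e-09) and Klf4 with −0.18 ± 0.02 (adjusted p = 5.91e-08). Klf13 was the member on the other side, at 0.05 ± 0.02 (adjusted p = 0.0426), a value that passed in 2 of 11 alternative analyses. Markers of cell identity also differed between the siRNA groups. At 0 h 4 of 7 tested chondrocyte markers were called, with Sox9 (0.61) and Comp (0.60) higher and Col2a1 (−0.76) and Col11a2 (−0.74) lower in IFT88siRNA, as were the fibroblast markers Col3a1 (0.71) and Lum (1.30), both higher, of 8 tested, against 2.23% of all genes. On average over the time points 1 of 9 chondrocyte markers was called, Acan at −1.30. Over time 6 of 9 tested chondrocyte and 3 of 8 fibroblast markers were called, against 5.19% of all genes. The summed chondrocyte markers ranged from 29.6 to 153.8 TPM in NT and from 37.7 to 133 TPM in IFT88siRNA, and the summed fibroblast markers from 2063 to 4443 and from 2135 to 4633 TPM. The part of these markers in the differences of the Klf genes was not tested. At 0 h, before IL-1β, 7 members had all 3 IFT88siRNA libraries below all 3 NT libraries, where 17.4% of genes did, and no member was wholly above (17.9%). Wholly lower were 3 members at 2 h (11% of genes), 3 at 4 h (10.4%), 3 at 8 h (10.7%) and 4 at 24 h (13.6%). Wholly higher were 4 of 9 tested at 2 h (11.1%), 1 at 4 h (11.6%) and 0 at 8 h (14%) and 24 h (13%).

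**Figure D4:**
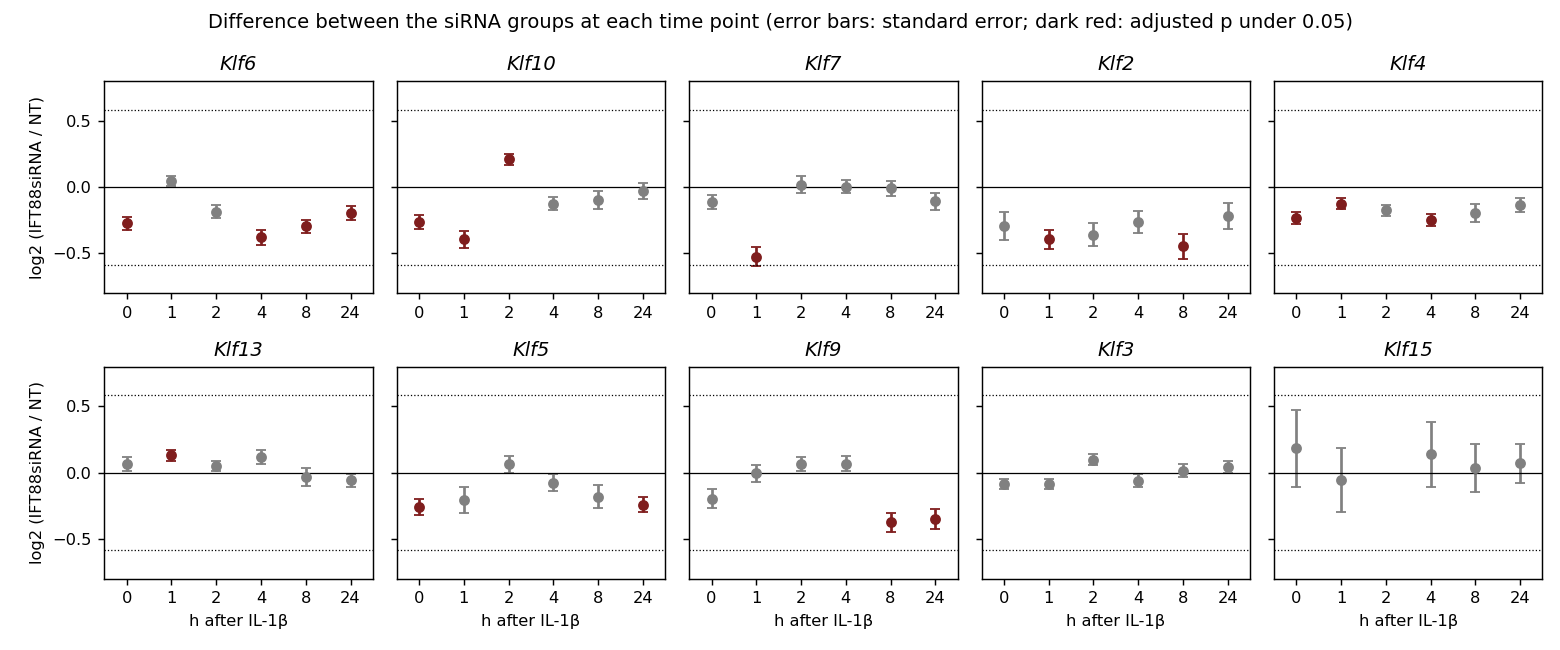
Log2 difference IFT88siRNA over NT for each member at each time point after IL-1β (points) with its standard error (bars, 3 libraries a group), dark red where the adjusted p was under 0.05 and with dotted lines at 1.5-fold. No point passes the dotted lines, and the largest coloured ones are Klf7 at 1 h and Klf2 at 8 and 1 h.

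Klf7 at 1 h was nearest to the threshold. Its IFT88siRNA libraries were at 83.5, 71.2 and 87.4 CPM against 117, 103 and 126 CPM in NT, so the groups did not overlap (4 members were wholly lower at 1 h, against 17.1% of genes, and Klf13 wholly higher, against 19.1%). The log2 difference was −0.53 ± 0.07 (adjusted p = 0.00013). Without NT replicate 2 it was −0.60 and passed 1.5-fold. At 2 h the same gene was at 108, 116 and 120.0 CPM in IFT88siRNA and 107, 124 and 108 CPM in NT, which overlapped (0.02 ± 0.07).

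Klf10 differed in opposite directions at 1 and 2 h. At 1 h it was at 171, 151 and 179.6 CPM in IFT88siRNA, below all NT libraries (197 to 238 CPM), with a log2 difference of −0.39 ± 0.06 (adjusted p = 0.000586). At 2 h it was at 249.9, 248 and 243 CPM, above all NT libraries (207 to 218 CPM), with a difference of 0.21 ± 0.04 (adjusted p = 0.0264). At 0 h its IFT88siRNA libraries, 32.2, 32.2 and 31.8 CPM, were also below NT by 0.26 (SE 0.0552, adjusted p = 0.00162). At 8 and 24 h the groups overlapped.

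Klf6 was lower in IFT88siRNA at 0 h, with 157, 141 and 159 CPM against 177, 189.9 and 185 CPM (log2 difference −0.27 ± 0.05, adjusted p = 0.00025), and at 4 h, with 275, 323 and 306 CPM against 411, 381 and 378 CPM (−0.38 ± 0.05, adjusted p = 0.000723). The groups were separate at both times. They were also separate at 2 h, with 439.8, 454 and 438 CPM in IFT88siRNA against 481, 539.7 and 489.9 CPM in NT. At 1 h the IFT88siRNA libraries, 1121, 1115 and 1046 CPM, overlapped with NT and the difference was 0.05 ± 0.04. The differences of Klf6 at 8 h (−0.30) and 24 h (−0.19) again passed the adjusted p.

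Klf9 differed late. At 8 h it was at 27.0, 24 and 23.0 CPM in IFT88siRNA against 33.0, 30.0 and 31.6 CPM in NT, and at 24 h at 17.8, 14.9 and 17.2 CPM against 21.6, 20.5 and 20.7 CPM. Both pairs of groups were separate, with log2 differences of −0.37 ± 0.07 (adjusted p = 0.0161) and −0.35 ± 0.07 (adjusted p = 0.00655). From 1 to 4 h its differences were between −0.01 and 0.07. The groups of Klf9 were also separate at 0 h, with 15.5, 14.6 and 13.9 CPM in IFT88siRNA below 16.1, 17.2 and 17.0 CPM in NT. At 2 h they were separate in the other direction, with 55.5, 56.3 and 56.8 CPM in IFT88siRNA above 51.7, 54.3 and 54.8 CPM in NT.

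Klf2 was lower in IFT88siRNA at all 6 time points, from −0.22 to −0.45 on the log2 scale, and its groups did not overlap at 1, 2, 8 and 24 h. At 1 h the libraries were at 22.5, 23.5 and 24.7 CPM against 34.8, 28.7 and 29.2 CPM (−0.39 ± 0.07, adjusted p = 0.00161). Klf4 was likewise lower at all 6, from −0.12 to −0.25, with separate groups at 0, 1, 2 and 4 h. For Klf3, Klf13 and Klf15 the sign varied between time points, and Klf5 was lower at 0 h (−0.26, adjusted p = 0.00423) and 24 h (−0.24, adjusted p = 0.0159) only by the adjusted p.

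The difference in response itself, that is in the change from 0 h, was tested in all 36 libraries. With both thresholds 0 of 10 members were called by edgeR and 0 by DESeq2 (1.2% of 16710 genes). An unadjusted p under 0.05 was found for 5, and the share of all genes at that threshold is not reported here. With the adjusted p alone 4 passed (5.53% of genes): Klf10, Klf6, Klf7 and Klf9. The libraries of these 4 were lower in IFT88siRNA at 0 h, the point from which the change is counted. At 2 h Klf10 had risen by 0.47 ± 0.09 more in IFT88siRNA than in NT, and at 1 h Klf6 by 0.33 ± 0.08 more and Klf7 by 0.41 less (SE 0.0993). Those of Klf9 were 0.26 ± 0.09 at 2 h, 0.27 ± 0.09 at 4 h and −0.17 ± 0.09 at 8 h, each with an adjusted p over 0.05 at the single time point. For Klf2 and Klf4 no difference in response was detected (adjusted p = 0.877 and 0.788), with values at the 5 time points from −0.14 to 0.08 and from −0.01 to 0.11.

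Among the 7 other family members in the table, 4 passed the filter on low counts in NT and 3 of them changed over time, where 50% of all genes did. Klf11, a paralogue of Klf10, rose at 1 h (0.70). The low-expressed Klf8 was lower at 1 h (−0.82) and higher at 4 h (1.13), and Klf1 was lower at 4 h (−1.24). Of the 9 Sp factors, which bind the same GC boxes, 4 were tested, and their changes, from −0.31 for Sp1 at 8 h to 0.41 for Sp4 at 2 h, stayed under 1.5-fold. At 2 h in NT the median log2 change was 0.47 for the tested other family members, 0.20 for the Sp factors, 0.67 for genes reported as KLF targets and −0.01 over all genes.

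Of 8 genes of the ERK5 and MEF2 pathway, which induces Klf2 and Klf4 in endothelium, 3 changed in NT over time, where 50% of all genes did. Mef2c rose at 1 h (0.98) and Mef2d at 2 h (0.93), and Mef2a, although raised by 0.66 at 2 h, was lower by 0.75 on the log2 scale at 8 h. Among 11 corepressors and coactivators 2 changed, against the same 50%, with Sin3a, the partner of KLF10, up by 0.90 at 2 h and the acetyltransferase gene Kat2a down at 2 h (−0.71) and up at 8 h (0.77). Of 8 ubiquitin ligase genes for KLF proteins 2 changed (50% of all genes), Fbxw7 falling at 2 h (−0.99) and Smurf1 rising (1.02).

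In the glucocorticoid receptor list, whose hormone induces Klf9 and Klf15, 4 of 5 tested genes changed over time in NT (50% of all genes). Sgk1 rose by 2.24 at 2 h and Per1 by 1.91 at 1 h, while Tsc22d3 fell by 0.89 at 24 h and Fkbp5 by 0.61 at 2 h. All of 12 tested genes reported as KLF targets changed by the same test (50% of all genes), 6 called up and 6 down at their largest change. S1pr1, the receptor that KLF2 induces in T cells, rose by 3.84 at 4 h and the urokinase gene Plau by 2.14 at 2 h, while Eng, the TGF-β co-receptor activated by KLF6, fell by 1.23 at 4 h and the smooth muscle gene Tagln was raised at 4 h (1.15) and lower at 24 h (−1.51). The KLF target Thbd, which encodes thrombomodulin, was the only gene of these 7 lists whose response differed by both thresholds between IFT88siRNA and NT, with a largest difference of −0.91 at 24 h (joint adjusted p = 5.74e-09). The 7 lists had 4, 4, 8, 11, 8, 5 and 12 genes in this test, and 1.2% of all 16710 genes were called. Thbd was named after its value was seen, so the call is not read as a result about KLF targets.

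Across the 12 conditions, the genes whose mean log2 CPM was most like that of Klf6 were the immediate-early genes Ier2 (Pearson r = 0.996) and Egr2 (r = 0.993), out of 11975 genes compared. For Klf4 they were Dusp6, a phosphatase that acts on ERK (r = 0.991), and Slc20a1 (r = 0.989). Klf2 had no partner as close after Amigo3 (r = 0.981), with Gk5 next at 0.940. Klf10 was closest to Zfp568 (r = 0.993) and Cttnbp2nl (r = 0.990), Klf5 to Zswim6 (r = 0.991) and Usp54 (r = 0.987), Klf9 to Slc39a6 (r = 0.991) and Metrnl (r = 0.987), and Klf13 to Serinc1 and Gmeb2 (r = 0.989 and 0.988). Klf7 was closest to Coq10b and Lamp1 (r = 0.979 each) and Klf15 to Ksr1 and Cdc45 (r = 0.966 and 0.965). The points share their libraries and the course after IL-1β, so these are descriptions. Among the 45 pairs of members r ran from −0.747, between Klf13 and Klf15, to 0.985, with a median of 0.607. The waves named above were not fully separate by this measure. Klf13 was closer to Klf10 (r = 0.930) and Klf7 (r = 0.905) than to Klf4 (r = 0.858), Klf5 (r = 0.783) or Klf9 (r = 0.777), but less close to Klf6 (r = 0.726).

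AU-rich elements in the tail of a messenger are known to mark short-lived transcripts. The pentamer ATTTA was present in the 3′ tail sequence of all 10 members in the GENCODE annotation, against 70.0% of 13135 other tested protein-coding genes. For each gene the protein-coding transcript with the longest tail was used. A longer tail has more places for a match, so presence alone does not compare the sets. The median number per kilobase was 1.86 in the members and 1.31 in the others, and the members' tails were longer, with a median of 2476 against 1169 bases. The density per kilobase was 2.87 in Klf7, 2.68 in Klf10, 2.48 in Klf9, 2.25 in Klf6, 1.87 in Klf3, 1.84 in Klf15, 1.36 in Klf2, 1.02 in Klf4, 0.582 in Klf13 and 0.543 in Klf5. The longer nonamer TTATTTATT was in 0 of 10 members and in 8.2% of the other genes.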

How the data were processed

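RNA was sequenced as poly(A)-selected 75-bp paired-end libraries in 36 samples of 12 conditions, with total counts of 19337022 to 38304127. The authors aligned reads to GRCm38 with HISAT2 2.1.0 and deposited raw read counts per gene (Ensembl 91) made with featureCounts of Subread 1.6.3 with default parameters, without strand. They also deposited TPM values from Salmon 0.9.1 with correction for GC bias.

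Counts were tested with the edgeR 4.0.16 quasi-likelihood F-test in R 4.3.3 (TMM, filterByExpr), fitted to all genes passing the filter in the 18 NT libraries, in the 18 IFT88siRNA libraries, in 3 against 3 libraries at each time point, and in all 36 libraries for the average difference and the difference in response. Adjusted p-values are Benjamini-Hochberg values over all genes tested. A gene was called, and is said to have risen or fallen, at an adjusted p under 0.05 and a change over 1.5-fold; over several time points the largest change counts. CPM values are TMM-scaled counts. Alternatives were DESeq2 1.42.0 and its size factors, upper-quartile scaling, no filter, limma 3.58.1 on log2(TPM + 1) and log2(TPM + 0.1), a replicate block and leaving out replicates. The fits were tested on simulated data with 200 genes changed by 1 on the log2 scale. Of these, 91.5% were called between the siRNA groups at 0 h, 77.5% over time in NT and 70% for the difference in response. Changes under 1.5-fold, such as those of the members between the siRNA groups, were not simulated. Likeness is Pearson's r of mean log2 CPM (prior count 2) over the 12 conditions, among genes with a mean of at least 50 counts in NT, and the 2 closest genes outside the family were named, except for Klf3, for which they are not reported here. From each gene list at most 2 genes in each direction with the largest called change in NT were named, besides a few chosen after their values were seen (Thbd, Sp1 and Sp4). The members and lists were chosen with earlier results of these data known. Positions are from GENCODE and promoters from RefSeq (GRCm38.p6). Plots used Python 3.11.15 (matplotlib 3.10.9).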

Additional observations from a re-analysis of the deposited data

Results flagged for a closer look

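The responses of 4 members to IL-1β differed between IFT88siRNA and NT by the joint test over the 5 time points, each by less than 1.5-fold. Klf10 differed by 0.47 on the log2 scale at 2 h, where its response was larger in IFT88siRNA (joint adjusted p = 0.000111, at 2 h alone 0.00339). The joint adjusted p stayed under 0.05 in 10 of 11 alternative analyses, over a range of 1.46e-10 to 0.114. Klf6 differed by 0.33 at 1 h (joint adjusted p = 0.0041, under 0.05 in 9 of 11, range 2.28e-07 to 0.323). Klf7 differed by −0.41 at 1 h (joint adjusted p = 0.000815, under 0.05 in 10 of 11, range 8.61e-09 to 0.106). Klf9 differed by 0.27 at 4 h (joint adjusted p = 0.000328, under 0.05 in 10 of 11, range 6.04e-07 to 0.0501), with no single time point under 0.05. The responses are counted from 0 h, so part of the differences of Klf6, Klf9 and Klf10 lay in that level. Mean CPM of Klf6 in NT and IFT88siRNA was 184 and 152 at 0 h, and 1053 and 1094 at 1 h. For Klf9 it was 16.8 and 14.7 at 0 h, and 40.0 and 42.1 at 4 h. For Klf10 it was 38.4 and 32.1 at 0 h, and 213 and 247 at 2 h. Klf7 was at 39.6 and 36.7 at 0 h, and at 116 and 80.7 at 1 h.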

How the results depend on the processing

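Of 2704 alternative values for 209 member values, 92 had the opposite sign, 45 lost a call and 14 gained one, and all of the sign changes were in 26 uncalled values of at most 0.22 in size on the log2 scale. On log2(TPM + 1) and log2(TPM + 0.1), tested with limma, the log2 changes became −0.029 for Klf3 at 1 h in NT, −0.071 and −0.074 for Klf2 at 2 h in NT, −0.028 for Klf6 at 8 h in NT, −0.059 and −0.063 for Klf13 at 24 h in NT, −0.048 and −0.049 for Klf3 at 1 h in IFT88siRNA, −0.0068 and −0.0071 for Klf2 at 2 h in IFT88siRNA, −0.073 for Klf3 at 2 h in IFT88siRNA, −0.034 and −0.035 for Klf3 at 8 h in IFT88siRNA, −0.031 for Klf6 at 8 h in IFT88siRNA, 0.015 and 0.017 for Klf9 (IFT88siRNA against NT) at 1 h, −0.024 and −0.025 for Klf7 (IFT88siRNA against NT) at 2 h, 0.013 for Klf7 (IFT88siRNA against NT) at 8 h, −0.0047 and −0.010 for Klf15 (IFT88siRNA against NT) at 8 h, 0.031 and 0.033 for Klf10 (IFT88siRNA against NT) at 24 h, −0.00014 for Klf15 (IFT88siRNA against NT) at 24 h and 0.020 for Klf3 (IFT88siRNA against NT) on average. With upper-quartile scaling they became −0.023 for Klf13 at 24 h in NT and −0.0037 for Klf3 at 8 h in IFT88siRNA. With DESeq2 size factors the value was 0.0032 for Klf10 at 8 h in NT. With DESeq2 itself they were 0.0043 for Klf10 at 8 h in NT, 0.0040 for Klf9 (IFT88siRNA against NT) at 1 h and 0.0023 for Klf7 (IFT88siRNA against NT) at 8 h. With no filter on low counts they were 0.018 for Klf9 (IFT88siRNA against NT) at 1 h, 0.020 for Klf7 (IFT88siRNA against NT) at 8 h and 0.0060 for Klf3 (IFT88siRNA against NT) on average. With all 36 libraries fitted together they were 0.0019 for Klf9 (IFT88siRNA against NT) at 1 h and 0.0072 for Klf7 (IFT88siRNA against NT) at 8 h. With replicates left out in turn, the values that changed sign ran from −0.043 to 0.084 for Klf10 at 8 h in NT, −0.038 to 0.35 for Klf2 at 8 h in IFT88siRNA, −0.19 to 0.060 for Klf7 from 1 to 2 h in NT, −0.13 to 0.026 for Klf10 from 1 to 2 h in NT, −0.067 to 0.090 for Klf9 (IFT88siRNA against NT) at 1 h, −0.14 to 0.045 for Klf15 (IFT88siRNA against NT) at 1 h, −0.047 to 0.085 for Klf7 (IFT88siRNA against NT) at 2 h, −0.023 to 0.040 for Klf7 (IFT88siRNA against NT) at 4 h, −0.017 to 0.28 for Klf15 (IFT88siRNA against NT) at 4 h, −0.013 to 0.059 for Klf3 (IFT88siRNA against NT) at 8 h, −0.034 to 0.034 for Klf7 (IFT88siRNA against NT) at 8 h, −0.075 to 0.028 for Klf13 (IFT88siRNA against NT) at 8 h, −0.10 to 0.16 for Klf15 (IFT88siRNA against NT) at 8 h, −0.0069 to 0.086 for Klf3 (IFT88siRNA against NT) at 24 h, −0.058 to 0.033 for Klf10 (IFT88siRNA against NT) at 24 h, −0.031 to 0.20 for Klf15 (IFT88siRNA against NT) at 24 h and −0.013 to 0.0063 for Klf3 (IFT88siRNA against NT) on average. Counts of members called moved by over 1.5 times only as follows. With the adjusted p and no fold threshold they were 6 at 8 h (52.4% of all genes) and 8 at 24 h (44.9%) in NT. In IFT88siRNA they were 7 (47.8%) and 4 (39.8%) at those times. From 2 to 4 h in NT the count was 10 (61.4%) and from 8 to 24 h it was 9 (43.4%). For IFT88siRNA against NT they were 4 (19.5%), 5 (19%), 1 (2.76%), 2 (3.85%), 3 (4.25%) and 3 (8.66%) at the 6 time points. The counts were 8 over time (31.8%), 8 on average (39.7%) and 4 for the difference in response (5.53%). The count at 24 h in IFT88siRNA was 2 with upper-quartile scaling and on log2(TPM + 0.1), that from 4 to 8 h was 5 in the 3 TPM settings, and that from 8 to 24 h was 1 with DESeq2 size factors, with no filter, in the 3 TPM settings and with DESeq2. With replicates left out the counts were 1 to 2 at 24 h in IFT88siRNA, 1 to 2 from 8 to 24 h in NT and 0 to 1 for IFT88siRNA against NT at 1 h. The causes were not tested.

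Same-numbered replicates did not pair. Over the 6 time points, the deviations of the 18 same-numbered pairs of NT and IFT88siRNA libraries correlated at −0.143 to 0.248 (median −0.00936), 3 of 18 over 0.1, and in 5 of 18 a library correlated best with its own number. With replicate number entered as a block, the count at 1 h in IFT88siRNA was 8 against 7, by the gain of Klf15, and no other count changed. Depth limited Klf15 most, with as few as 3 reads in a library.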
